A study of Homo sapiens with 14 samples.

Results

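The potassium channel genes described here are all genes whose symbol in the deposited count tables starts with KCN, apart from KCNS2 and KCNS3, which were left out. The rule used no measured value. It found 89 identifiers under 88 symbols among 17810 genes in the table of the OmoMYC experiment, and 92 identifiers among 19143 genes in the table of the parental cells. Across both tables there were 92 symbols. A member was tested when it passed the filter on low counts, was called silent when every library of the experiment held at most 3 counts, and was called low otherwise. In the OmoMYC experiment 64 members were tested, 14 were low and 11 were silent. In parental cells 69 were tested, 14 were low and 9 were silent, and 61 symbols were tested in both experiments.

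Potassium channels let potassium leave or enter a cell down its gradient, and so set the resting potential, shape the action potential and limit how fast a neuron fires. The KCN genes encode pore subunits of several kinds: voltage-gated channels (KCNA, KCNB, KCNC, KCND, KCNH and KCNQ), channels opened by intracellular calcium or sodium (KCNMA1, KCNN and KCNT), inward rectifiers (KCNJ) and two-pore-domain leak channels (KCNK). Other members form no channel alone: the modifier subunits (KCNF, KCNG, KCNS and KCNV) assemble with KCNB subunits, and auxiliary subunits (KCNAB, KCNE, KCNIP, KCNMB) change the gating or the trafficking of a pore. Cells of the sympathetic lineage, from which neuroblastoma arises, are excitable and use many of these channels.

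The cells were CHP-134, an established line from a human neuroblastoma in which MYCN is amplified. In the first experiment, CHP-134 cells that carry a lentiviral, doxycycline-inducible OmoMYC were compared with CHP-134 cells that carry inducible enhanced green fluorescent protein (EGFP), 3 libraries each, all after 3 days in 1 µg/ml doxycycline. OmoMYC is an engineered MYC dimerization domain that competes with MYC proteins, and the comparison asks which genes depend on N-MYC. The 2 lines were transduced and drug-selected separately, so the line and the transgene cannot be told apart. In the second experiment, parental CHP-134 cells without a degradable tag received 500 nM dTAG47, a compound that degrades tagged proteins, or matched DMSO for 18 h, 4 libraries each, as a control for effects of the compound itself. Parental cells grew in normal serum and the engineered lines in tetracycline-free serum, and the tables were fitted apart.

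Libraries held 28060817 to 38358128 counts in the OmoMYC experiment and 40861430 to 53451641 in parental cells, so that 1 count corresponded to between 0.0186 and 0.0358 CPM, the count scaled to the total of its library. EGFP replicates 1 and 3 differed more than any other pair of replicates (chi-square per degree of freedom of 42.1, against 2.64 to 22.4 in the other pairs), and DMSO replicates 1 and 2 stood apart from replicates 3 and 4. All 10 neuroblastoma markers on the list were tested in both experiments, with MYCN at 2710 CPM in EGFP, whereas TH (0.238 CPM) and DBH (0.405 CPM), enzymes of catecholamine synthesis, were near the floor. With OmoMYC, 5 of these 10 markers were higher (TH and DBH among them) and 1, MYCN, was lower. The groups of CHGA, 1 of those higher, overlapped. Of all tested genes in that comparison, 27.3% were higher and 25.7% lower. Of 8 mesenchymal markers, 2 were higher and 2 lower, and TWIST1 stood at 283 CPM in EGFP. Schwann and glial markers summed to 5.46 to 8.58 CPM in the OmoMYC experiment and to 7.88 to 12.7 CPM in parental cells. There 1 of 4 tested markers was higher with dTAG47, beside 0.117% of all tested genes. Blood markers summed to at most 0.658 and 1.49 CPM, and PTPRC was lower with OmoMYC. The part of these differences in the values below was not tested.

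Per length, KCNG1, KCNH2, KCNK2 and KCNH7 were among the 5 most abundant members in EGFP, with mean levels of 11.8, 11.7, 10.7 and 8.74 CPM per kilobase of exon. KCNH2 is the ERG channel known from the cardiac action potential and KCNH7 is its relative, KCNK2 is a leak channel gated by stretch, and KCNG1 is a modifier subunit. Among all tested genes these levels lay at percentiles 73.5 to 65.3. The length is that of all annotated exons of a gene together, so the ranking depends on the annotation. KCNC1, with 14417 bases of exon, ranked below KCNK2, with 4294, though its mean CPM in EGFP was higher (63.1 and 45.9). In DMSO, KCNB2, a delayed rectifier, held 24.5, KCNG1 15.5, KCNH7 11.2 and KCNK2 8.86 CPM per kilobase, again all among the 5 highest. KCNG1, KCNH7 and KCNK2 thus stood high in both the engineered and the parental cells, whereas KCNB2 stood at 91.9 mean CPM in DMSO and at 30.9 mean CPM in EGFP. KCNA2, a Shaker-type channel of axons, likewise stood at 7.92 CPM in DMSO and 2.24 CPM in EGFP. These levels come from tables normalized separately and from cells grown in different serum, and were not tested against each other.

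**Figure D1:**
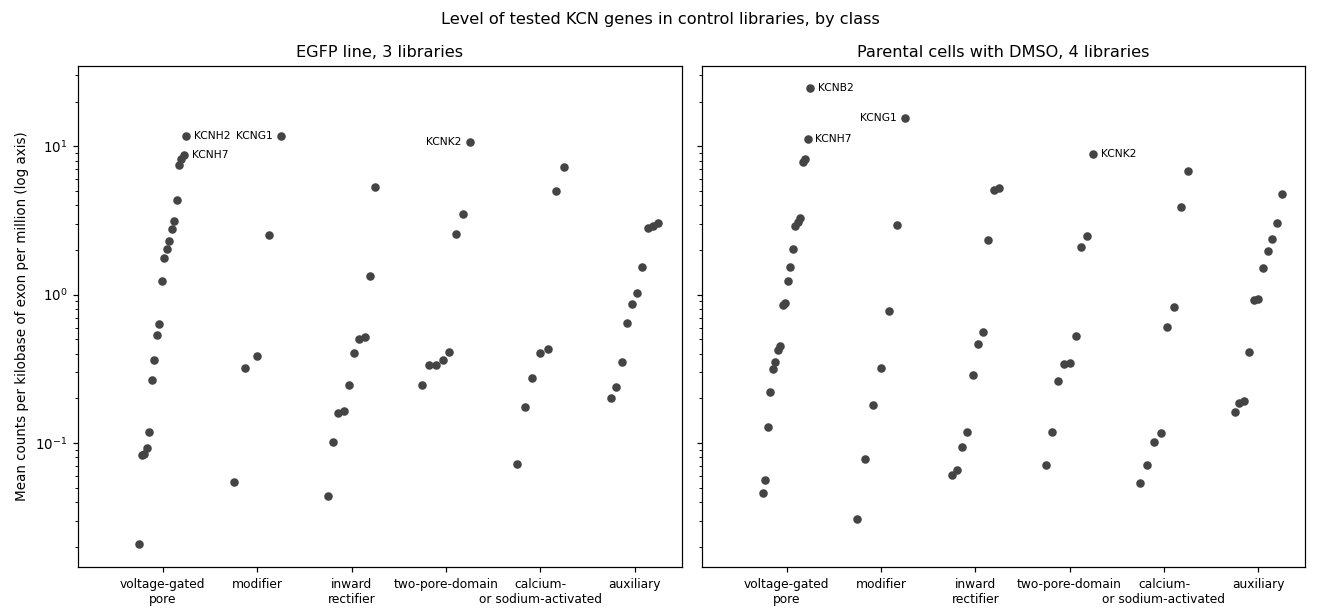
Mean level of tested KCN genes in EGFP libraries (left, n = 3) and DMSO libraries (right, n = 4), in CPM per kilobase of exon on a log axis, with 1 point per gene and the genes of each class sorted by level. Members named are among the 5 highest, from KCNG1 at 11.8 to KCNH7 at 8.74 in EGFP and from KCNB2 at 24.5 to KCNK2 at 8.86 in DMSO, and each class also holds members with levels below 1.

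Auxiliary subunits, inward rectifiers and leak channels held most of the members below the filter. Silent in both experiments were KCNA6, KCNJ15, KCNJ16, KCNK16 and KCNMB1, the smooth muscle subunit of the calcium-activated BK channel. KCNE3, KCNG4, KCNK4 and KCNK13 were silent in the OmoMYC experiment and low in parental cells, with at most 8 counts in any parental library. KCNA1, KCNK17 and KCNK18 were listed for parental cells alone and were silent there, and KCNA7 was silent in parental cells and low (0 to 17 counts) in the other experiment. KCNA10 was listed for parental cells alone and was low. Low in both experiments were KCNE1, KCNE4, KCNJ1, KCNJ10, KCNK10 and KCNMB2, low with EGFP and OmoMYC but tested in parental cells were KCNE1L, KCNE2, KCNG2, KCNK9, KCNU1 and KCNV1, and the reverse held for KCNIP1, KCNJ9 and KCNQ1. A count of 3 equals 0.107 CPM in the shallowest EGFP library and 0.0732 CPM in the shallowest DMSO library. This conversion leaves out counting error, so the level of a silent gene can be higher.

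The entries for KCNJ12 and KCND1 in the OmoMYC table cannot be read as silence. KCNJ12, a strong inward rectifier, is listed there under ENSG00000261309.2 with 0 to 1 counts, but in the parental table under ENSG00000184185.5 at 27.7 mean CPM. KCND1, an A-type channel, has 2 identifiers in the OmoMYC table, ENSG00000102057.5 with 2 to 12 counts and ENSG00000267829.1 with 0 to 2, while the parental table has 1 identifier at 1.35 mean CPM. How reads shared by such entries were counted is not given in the sources used here. KCNJ12 also has near-identical copies in the genome, so its count is uncertain in either table.

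Between the OmoMYC and EGFP lines the KCN genes differed in both directions, with the larger differences upward in OmoMYC. KCND2, KCNN3 and KCNT1 rose most among members at 1 mean CPM or more in either group. KCNK6, KCNG1 and KCNJ6 were among the larger falls. By edgeR's quasi-likelihood test with a Benjamini-Hochberg adjusted p (FDR) below 0.05, 23 of the 64 tested members were higher with OmoMYC, 16 were lower and 25 were not called. That is 60.9% called, where 53.0% of all 13803 tested genes were called, 27.3% higher and 25.7% lower. Past 2-fold, 13 members (20.3%) were higher, beside 6.68% of all tested genes, and 1 member (1.56%), KCNJ3, was lower, beside 1.56%. The groups did not overlap for 42 members (65.6%), beside 62.3% of all tested genes, and 40 members (62.5%) had an unadjusted p below 0.05, beside 59.2%. The median log2 fold change was 0.14 for members and 0.01 for all tested genes, and the median size of the change, whatever its direction, was 0.47 and 0.31.

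The balance of rises and falls was not the same in every fit. With RLE factors, another way to scale libraries, it stayed at 23 higher and 16 lower. These are 35.9% and 25% of members, beside 26.3% and 26.6% of all tested genes. A trend of log2 counts on GC content, transcript length and gene span was removed from each library. Its fit held a constant, so the removal also re-centred each library, and the part of each in what follows was not tested. With this trend removed, 14 members were higher and 21 lower, and the median of all tested genes moved from 0.01 to -0.08. These are 21.9% and 32.8% of members, beside 22.0% of all tested genes higher and 38.9% lower in the same fit, so that the larger share of rises among members was not seen there. Without EGFP replicate 1, 22 members were higher (33.8%) and 17 lower (26.2%), beside 26.4% and 27.8% of all tested genes. Without EGFP replicate 3, 26 were higher (38.8%) and 15 lower (22.4%), beside 29.0% and 29.9%. KCNQ1 and KCNJ9 reached 10 counts in OmoMYC libraries alone, so they passed the filter through the group in which they were high. Likewise, KCNN3 (0.989 mean CPM in EGFP), KCNJ2 (0.914) and KCNF1 (0.886) reached 1 CPM, the limit for ranked members, through OmoMYC. KCNK1, a fall, reached it through EGFP (1.18, and 0.725 in OmoMYC). In these bulk libraries, a change in RNA per cell and a change in the share of cells that express a gene cannot be told apart.

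**Figure D2:**
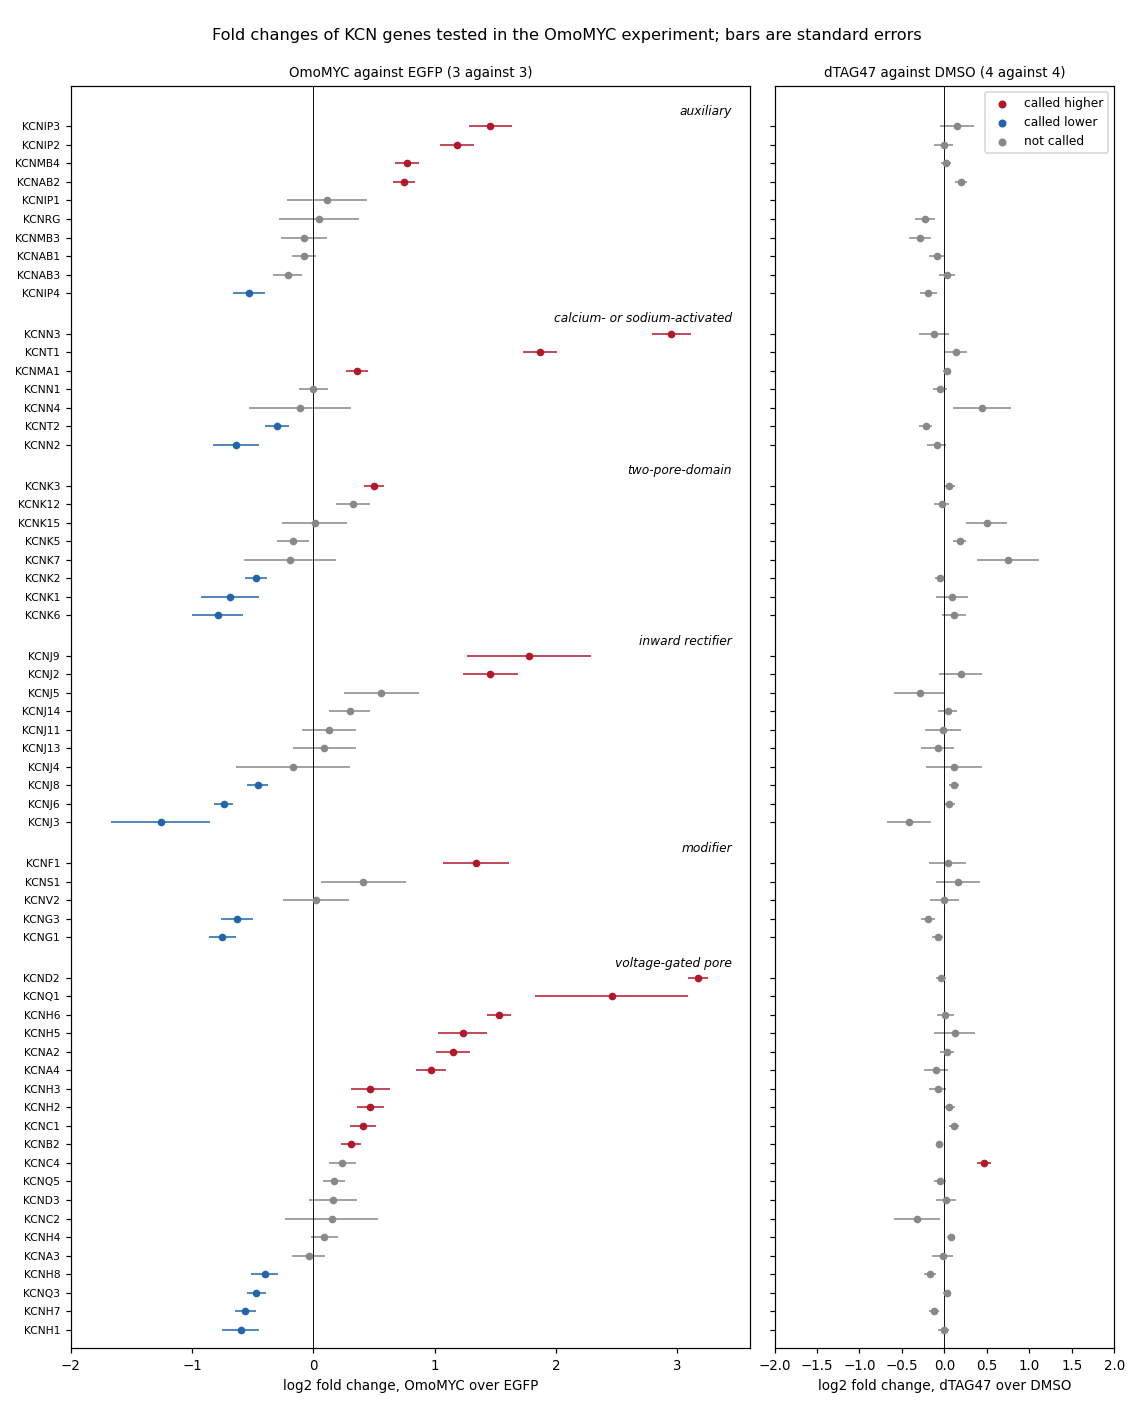
Log2 fold change with its standard error for 60 of the 64 KCN genes tested in the OmoMYC experiment, OmoMYC over EGFP on the left (n = 3 and 3) and dTAG47 over DMSO on the right (n = 4 and 4, for those also tested there), grouped by class and sorted by the left value. Red points were called higher and blue points lower at an FDR below 0.05, and grey points were not called. On the left, values run from 3.17 (KCND2) to -1.26 (KCNJ3), and on the right 1 gene, KCNC4, is called.

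Voltage-gated pore subunits were the largest class: of 24 tested, 12 were higher, 5 were lower and 7 were not called. The share called was 70.8%, beside 53.0% of all tested genes, and the median log2 fold change was 0.27. KCND2 encodes an A-type channel, which opens briefly below the firing threshold and delays the next spike in dendrites. It stood at 13.0, 14.9 and 14.0 CPM in the EGFP libraries and at 123, 131 and 123 CPM in the OmoMYC libraries. All 3 OmoMYC libraries lay far above all 3 EGFP libraries, a 9.00-fold difference (log2 fold change 3.17 ± 0.08 SE, FDR = 7.93e-10). Per length, KCND2 went from 2.31 to 20.8 CPM per kilobase, which was above every other member in the OmoMYC libraries. The gene (ENSG00000184408.5) spans chr7:119913229-120390391 on the plus strand of GRCh37 (hg19). Its close relative KCND3, another A-type channel, held 1.92, 1.29 and 1.72 CPM in EGFP and 1.98, 1.61 and 1.97 CPM in OmoMYC, groups that overlapped (log2 fold change 0.16 ± 0.20 SE, not called).

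The promoter of KCND2 is shown because it was 1 of 3 member promoters that hold CACGTG, the canonical E-box to which MYC and its partner MAX bind. RefSeq promoter windows, 250 bases before to 50 bases after the start, were matched for 69 members in GRCh38.p14, and CACGTG and CACGCG were searched on both strands. CACGTG was present in 3 of these 69 (4.3%) and in 7.4% of all 27305 promoters, and CACGCG in 5 (7.2%) and in 11.4%. The 30 bases around each CACGTG follow, 5′ to 3′ on the strand of the gene, with the motif in capitals.
KCND2: accgcagcccagCACGTGaagcttcccttt
KCNH4: cccgtgtggggcCACGTGgcgggtgcgggc
KCNN4: tgtgtctttatcCACGTGgatggacgtctc
These stretches lie at chr7:120272982-120273011 on the plus strand, chr17:42181185-42181214 on the minus strand and chr19:43781141-43781170 on the minus strand, and the first base of the motif is at -181, -60 and -185 from the start. KCNH4 and KCNN4 were not called with OmoMYC (log2 fold changes 0.09 and -0.11), though KCNH4 was called lower (-0.35) with the trend on gene features removed. By call, CACGTG was in 1 of 16 matched members that were higher, 0 of 12 that were lower and 2 of 19 that were not called. CACGCG was in the promoters of KCNF1, which was higher, of KCNJ6, which was lower, of KCNH4 and KCNK5, which were not called (KCNK5 was -0.17, and -0.54 and called lower with the trend removed), and of KCNK10, which was not tested. A match describes these letters only, and no binding was measured.

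The KCNH genes, which encode the ether-à-go-go, ERG and ELK channels, moved in opposite directions. The ERG relative KCNH6 held 6.66, 7.34 and 8.23 CPM in EGFP and 20.9, 21.2 and 22.1 CPM in OmoMYC, without overlap. It rose 2.89-fold (log2 fold change 1.53 ± 0.10 SE, FDR = 1.37e-06). KCNH2 itself rose less, from 72.1, 82.4 and 98.6 CPM to 115, 111 and 123 CPM (log2 fold change 0.47 ± 0.11 SE, FDR = 0.00395), and its value was 0.00 and not called once the trend on gene features was removed. The third ERG gene, KCNH7, fell from 44.1, 43.8 and 43.3 CPM to 28.6, 32.8 and 27.4 CPM (log2 fold change -0.56 ± 0.09 SE, FDR = 0.00039). Of these 3 related channels, then, 2 were called higher and 1 lower, and none of their groups overlapped.

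The same split was seen in the ether-à-go-go pair. KCNH5 held 0.978, 1.15 and 0.964 CPM in EGFP and 2.83, 2.47 and 1.97 CPM in OmoMYC, a 2.35-fold rise near 1 CPM (log2 fold change 1.23 ± 0.20 SE). KCNH1 held 3.44, 3.12 and 3.72 CPM in EGFP and 2.35, 2.44 and 1.97 CPM in OmoMYC, and fell (log2 fold change -0.60 ± 0.15 SE, FDR = 0.00741). Neither pair of groups overlapped. Among the ELK channels, KCNH8 was lower (-0.40), KCNH4 was not called (0.09) and KCNH3 was higher (0.47), but KCNH3 lost its call without EGFP replicate 2 and without each of the OmoMYC replicates, with a largest FDR of 0.13, and its value was -0.07 with the trend on gene features removed.

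Of the KCNQ genes, which give the M current that holds neurons below threshold, KCNQ3 held 35.3, 33.2 and 36.2 CPM in EGFP and 24.9, 23.7 and 27.3 CPM in OmoMYC. Every OmoMYC library was below every EGFP library (log2 fold change -0.47 ± 0.08 SE, FDR = 0.00112). KCNQ5 was not called (0.17). KCNQ1, the slow delayed rectifier of the heart, was called higher (log2 fold change 2.46 ± 0.63 SE) at levels below 1 CPM in every library. It lies opposite KCNQ1OT1, an antisense transcript, and the strand setting of the counting is not given in the sources used here, so reads of the pair cannot be told apart.

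Shaker-type and delayed rectifier subunits rose or were not called. KCNA2 held 2.21, 2.40 and 2.10 CPM in EGFP and 4.50, 5.09 and 5.26 CPM in OmoMYC, a 2.22-fold rise with no overlap (log2 fold change 1.15 ± 0.14 SE, FDR = 8.55e-05). KCNA4, which gives an inactivating current, rose as well (0.97), whereas KCNA3 was not called (-0.04). On chromosome 1, KCNA2 and KCNA3 are 22.1 kb apart, so these neighbours had different calls. The delayed rectifier KCNB2 rose as well (0.31), was 0.03 and not called with the trend on gene features removed, and lost its call without OmoMYC replicate 2 or 3.

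In the KCNC genes, whose channels close fast and let neurons fire at high rates, KCNC1 was higher (0.41), from 63.1 to 83.7 mean CPM. This call was lost without OmoMYC replicate 3, and with the trend on gene features removed KCNC1 was called lower at -0.16. KCNC2 and KCNC4 were not called (0.15 and 0.24).

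Channels gated by intracellular calcium or sodium held 2 of the 3 largest rises among members at 1 mean CPM or more in either group. Of 7 tested, 3 were higher, 2 were lower and 2 were not called (71.4% called, beside 53.0% of all tested genes). KCNN3 encodes a small-conductance channel (SK), which is opened by calcium and produces the afterhyperpolarization that follows a spike. It held 1.14, 1.04 and 0.792 CPM in EGFP and 7.20, 8.44 and 7.37 CPM in OmoMYC, a 7.72-fold rise from a level near 1 CPM (log2 fold change 2.95 ± 0.16 SE, FDR = 3.57e-07). The gene (ENSG00000143603.14) lies at chr1:154669931-154842757 on the minus strand of GRCh37. Another SK gene, KCNN2, moved the other way, from 2.43, 2.01 and 3.00 CPM to 1.57, 1.61 and 1.58 CPM (log2 fold change -0.64 ± 0.19 SE, FDR = 0.0143), again with no overlap. The most abundant SK gene in EGFP per length, KCNN1, was not called (log2 fold change 0.00 ± 0.12 SE, 30.8 and 30.7 mean CPM), and KCNN4 was not called either. With the trend on gene features removed KCNN1 was called lower at -0.50.

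The sodium-activated channels showed a like contrast. KCNT1 held 3.34, 4.37 and 5.06 CPM in EGFP and 14.8, 15.0 and 16.9 CPM in OmoMYC, with all OmoMYC libraries above all EGFP libraries (3.67-fold, log2 fold change 1.87 ± 0.14 SE, FDR = 3.73e-06). KCNT2, which was higher than KCNT1 in EGFP, held 41.3, 34.0 and 32.5 CPM there and 28.9, 31.2 and 27.3 CPM in OmoMYC. It was called lower (log2 fold change -0.30 ± 0.10 SE, FDR = 0.0304), but not without OmoMYC replicate 1 or 3 or with the trend on gene features removed (-0.10). KCNMA1, the pore of the BK channel that opens to calcium and voltage together, held 16.4, 18.3 and 16.5 CPM in EGFP and 20.8, 23.0 and 21.9 CPM in OmoMYC. That rise was small (log2 fold change 0.36 ± 0.09 SE, FDR = 0.0056), lost its call without OmoMYC replicate 2 (FDR = 0.0512) and was 0.17 and not called with the trend on gene features removed.

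Of the 10 inward rectifiers tested, 2 were higher, 3 were lower and 5 were not called. The share called was 50%, beside 53.0% of all tested genes. KCNJ2 encodes the classical strong inward rectifier, which holds the resting potential near that of potassium. It held 1.17, 0.609 and 0.964 CPM in EGFP and 2.56, 2.28 and 2.83 CPM in OmoMYC, a 2.76-fold rise with no overlap (log2 fold change 1.46 ± 0.23 SE, FDR = 0.000438). The channels opened by G proteins, which slow cells in response to neurotransmitters, differed among themselves. KCNJ6, the most abundant of these in EGFP, fell from 27.8, 27.1 and 25.3 CPM to 16.1, 15.7 and 16.1 CPM (log2 fold change -0.74 ± 0.08 SE, FDR = 4.79e-05). KCNJ3 held 0.631, 0.537 and 1.17 CPM in EGFP and 0.239, 0.467 and 0.230 CPM in OmoMYC, and was called lower (log2 fold change -1.26 ± 0.41 SE, FDR = 0.0244), but the call was lost when EGFP replicate 3 or either of OmoMYC replicates 1 and 3 was left out. KCNJ9 was called higher (1.78) at levels between 0.0946 and 1.02 CPM, and lost its call without OmoMYC replicate 3. KCNJ5 was not called (0.56). KCNJ8, a pore of ATP-sensitive channels, was lower (-0.46), and KCNJ11, the other pore of that type, was not called (0.13).

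Among the 8 two-pore-domain leak channels tested, 1 was higher, 3 were lower and 4 were not called. The share called was 50%, beside 53.0% of all tested genes, and the class median was -0.18. KCNK3, a leak channel closed by acid, held 15.3, 16.4 and 16.1 CPM in EGFP and 23.5, 21.4 and 22.8 CPM in OmoMYC, with no overlap (log2 fold change 0.50 ± 0.08 SE, FDR = 0.000699), though it was 0.13 and not called with the trend on gene features removed. KCNK2 fell from 49.0, 44.4 and 44.3 CPM to 34.3, 34.7 and 30.2 CPM (log2 fold change -0.47 ± 0.09 SE, FDR = 0.00111). The groups of KCNK2 were apart as well, in the other direction. KCNK6 held 2.56, 1.93 and 3.10 CPM in EGFP and 1.53, 1.64 and 1.18 CPM in OmoMYC, a fall at low levels (log2 fold change -0.79 ± 0.21 SE, FDR = 0.00999). KCNK1 held 1.33, 0.967 and 1.24 CPM in EGFP and 0.614, 0.805 and 0.756 CPM in OmoMYC (log2 fold change -0.69 ± 0.24 SE, FDR = 0.0298), and was called in 2 of the 6 fits that left out 1 library, with a largest FDR of 0.0993.

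Of the modifier subunits, 1 of 5 tested was higher, 2 were lower and 2 were not called. The share called was 60%, beside 53.0% of all tested genes. KCNG1 held 53.6, 66.7 and 72.0 CPM in EGFP and 38.3, 36.4 and 40.1 CPM in OmoMYC, and fell 1.68-fold (log2 fold change -0.75 ± 0.11 SE, FDR = 0.000262). KCNG3 fell from 9.65, 9.20 and 9.33 CPM to 5.83, 5.29 and 7.17 CPM (log2 fold change -0.63 ± 0.13 SE, FDR = 0.002). KCNF1 moved the other way, from 0.820, 1.25 and 0.586 CPM to 1.98, 1.97 and 2.80 CPM (2.53-fold, log2 fold change 1.34 ± 0.27 SE, FDR = 0.00206). No group of these 3 genes overlapped, and KCNS1 and KCNV2, both below 1 CPM, were not called.

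Auxiliary subunits included 4 that were higher, 1 that was lower and 5 that were not called, of 10 tested. The share called was 50%, beside 53.0% of all tested genes. The KCNIP proteins are calcium sensors that bind KCND channels and bring them to the membrane. KCNIP3, which is also known as a calcium-dependent transcriptional repressor, held 1.45, 1.83 and 2.38 CPM in EGFP and 4.95, 4.80 and 5.76 CPM in OmoMYC (2.74-fold, log2 fold change 1.46 ± 0.18 SE, FDR = 0.000104). KCNIP2 rose from 2.62, 2.97 and 3.24 CPM to 5.76, 7.45 and 6.68 CPM (2.26-fold, log2 fold change 1.18 ± 0.14 SE, FDR = 9.97e-05). KCNIP4 fell from 7.29, 5.59 and 6.17 CPM to 4.43, 4.59 and 4.18 CPM (log2 fold change -0.53 ± 0.13 SE, FDR = 0.00669). Per length, KCNIP4 was above KCNIP2 in EGFP (1.54 and 0.866 CPM per kilobase) and below it in OmoMYC (1.07 and 1.95 CPM per kilobase). KCNMB4, the neuronal subunit of the BK channel, was higher (0.77), and so was KCNAB2, a subunit of Shaker-type channels (0.75; 0.16 and not called with the trend on gene features removed). KCNAB1, KCNAB3, KCNIP1, KCNMB3 and KCNRG were not called, with log2 fold changes between -0.21 and 0.11, and KCNAB3, at the lower end, was called lower (-0.48) with the trend removed. KCNE1, a partner of KCNQ1, had 1, 0 and 0 counts in EGFP and 5, 6 and 4 counts in OmoMYC and was not tested. Without the filter and by DESeq2 it was called higher.

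**Figure D3:**
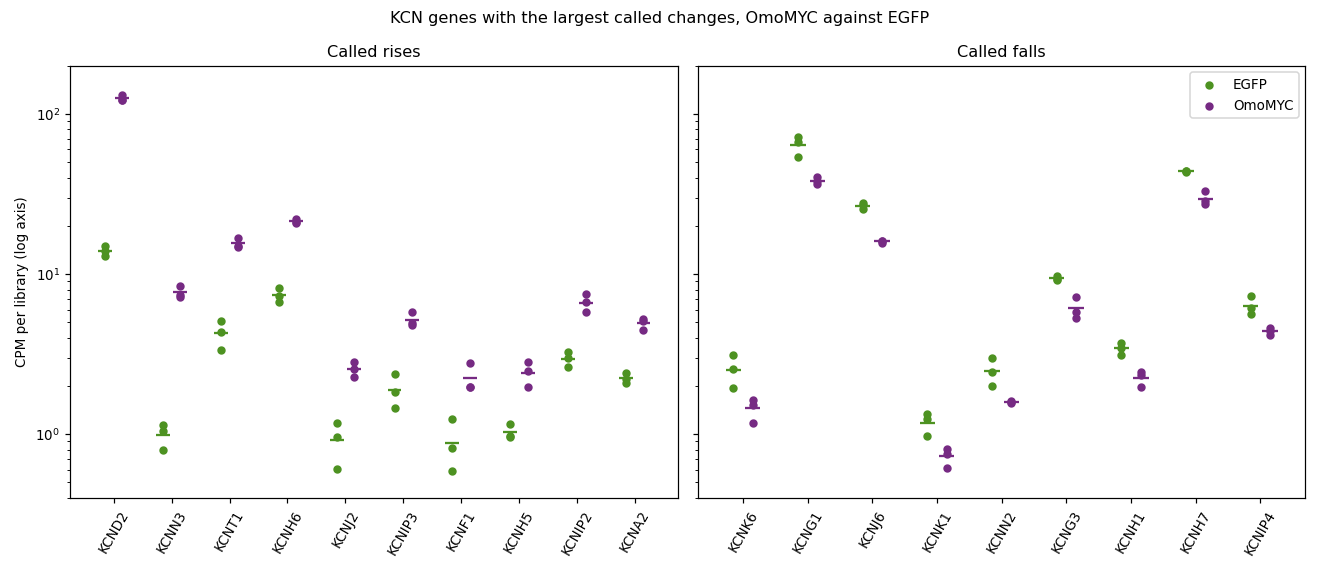
CPM in each library on a log axis for the 10 largest called rises (left) and 9 of the 10 largest called falls (right) among KCN genes with at least 1 CPM in either group and no overlap, EGFP in green and OmoMYC in purple (n = 3 each), with a bar at each mean. KCND2 goes from 13.0 to 14.9 CPM in EGFP to 123 to 131 CPM in OmoMYC, while the falls shown are all smaller than 2-fold.

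Genes that act with these channels moved in both directions as well. Of 20 genes for partners of potassium channels, 17 were tested, and 6 were higher and 5 lower with OmoMYC. Beside these, 53.0% of all tested genes were called, 27.3% higher and 25.7% lower. AMIGO1, an adhesion protein of neurons, rose from 5.23 ± 0.0960 to 14.1 ± 1.23 CPM (mean ± SD, n = 3; log2 fold change 1.43). TMEM38A, a counter-ion channel of the sarcoplasmic reticulum (1.05), TMEM175, a lysosomal potassium channel (0.93), LRRC26, a BK channel subunit (0.87, below 1 CPM), ABCC8, the sulfonylurea receptor (0.56), and CALM3, a calmodulin gene (0.50), were also higher. Among the lower genes were TMEM38B (-0.77), CNTNAP2, which clusters Shaker-type channels along axons (-0.63), AKAP5 (-0.43) and VAPA, a membrane contact protein (-0.31). DPP6, a partner of KCND channels, was not called (0.00, 19.6 mean CPM in both groups), and DPP10, its relative, reached 1 count at most.

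Genes that carry potassium by other means showed the largest single change. Of 11 pump and cotransporter genes, 9 were tested, and 6 were higher and 2 lower with OmoMYC, where 53.0% of all tested genes were called. ATP1B2, a beta subunit of the sodium and potassium pump, rose from 5.44 ± 0.206 to 207 ± 14.8 CPM (mean ± SD, n = 3; log2 fold change 5.25 ± 0.09 SE, FDR = 4.66e-11). ATP1B1 was higher (0.50), while ATP1B3 was lower (-0.43). The potassium and chloride cotransporters SLC12A5 (1.04), SLC12A4 (0.41) and SLC12A7 (0.26) were higher, but SLC12A4 was -0.05 and SLC12A7 -0.23 with the trend on gene features removed. SLC12A2, which brings sodium, potassium and chloride into cells, was not called (-0.22).

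Members that fell were longer and poorer in GC than members that rose. The median gene span was 296 kb for the 16 that fell, 88.8 kb for the 23 that rose and 28.9 kb for the 25 not called, and 35 kb for all tested genes. The median GC content of the longest transcript was 45.6% for those that fell, 57.5% for those that rose and 54.1% for those not called, and 48.3% for all tested genes. Median GC content thus followed the direction of change, whereas median span was above that of members not called in rises and falls alike. The part of these features was addressed only by the trend removal given above, which also re-centred each library. With that trend removed, KCND2 (3.07), KCNN3 (2.87) and KCNT1 (1.32) were still called higher.

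In parental cells without a tag, dTAG47 left almost every KCN gene uncalled. Of 69 tested members, 1 was higher and none was lower by edgeR's quasi-likelihood test. That is 1.45% called, beside 0.159% of all 14470 tested genes (23 genes), or 0.117% higher and 0.0415% lower. With a factor for replicates 1 and 2 against 3 and 4, 3 members were called, all higher (4.35%), beside 5.49% of all tested genes, so that the share of members was above that of all genes in one fit and below it in the other. Past 2-fold no member was called, beside 0.00% of all tested genes higher and 0.00691% lower. At an unadjusted p below 0.05 there were 7 members (10.1%), beside 7.28% of all tested genes, and by DESeq2 again 1 was higher and none lower. The groups did not overlap for 2 members (2.9%), KCNC4 and KCNRG, beside 3.34% of all tested genes. The median log2 fold change of members was 0.02, and the largest in size was 0.75 for KCNK7, a member below 1 CPM that was not called.

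The called member was KCNC4, a Shaw-type channel that gives a fast inactivating current (ENSG00000116396.9, chr1:110752936-110825722, plus strand of GRCh37). It held 9.31, 9.11, 9.22 and 9.00 CPM in DMSO and 13.1, 10.8, 12.6 and 14.4 CPM with dTAG47. All 4 dTAG47 libraries were above all 4 DMSO libraries, and the spread was wider with dTAG47 (SD 1.48) than with DMSO (SD 0.134). The difference was 1.39-fold (log2 fold change 0.47 ± 0.08 SE, FDR = 0.0319). The call was kept without dTAG47 replicate 2 and lost when any of the other 7 libraries was left out, with FDR values from 0.000721 to 0.116 and log2 fold changes from 0.41 to 0.54. With a factor for replicates 1 and 2 against 3 and 4 the value was the same, 0.47, with an FDR of 0.000181. In the OmoMYC experiment KCNC4 held 12.9, 12.5 and 16.3 CPM in EGFP and 16.3, 16.5 and 16.6 CPM in OmoMYC and was not called (0.24 ± 0.11 SE; 0.25 and called with the replicate block).

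The other members with small p-values did not pass the test. KCNT2 held 56.3, 48.6, 44.9 and 45.7 CPM in DMSO and 39.1, 49.1, 40.4 and 38.5 CPM with dTAG47, where replicate 2 of dTAG47 lay within the DMSO range (log2 fold change -0.22 ± 0.08 SE, FDR = 0.673). Without that library KCNT2 was called lower (-0.31, FDR = 0.0409). KCNAB2 held 14.8, 15.2, 17.7 and 16.7 CPM in DMSO and 17.1, 17.2, 19.2 and 20.1 CPM with dTAG47, and replicates 3 and 4 were higher than replicates 1 and 2 in both groups (log2 fold change 0.20 ± 0.07 SE, FDR = 0.673). With the factor for these pairs of replicates KCNAB2 was called higher (0.19, FDR = 0.0189).

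KCNH8 held 19.1, 19.7, 17.9 and 18.0 CPM in DMSO and 15.5, 18.5, 16.7 and 15.6 CPM with dTAG47 (log2 fold change -0.17 ± 0.07 SE). KCNG3 held 12.2, 10.5, 10.5 and 10.6 CPM in DMSO and 8.96, 10.8, 9.00 and 9.58 CPM with dTAG47 (-0.19 ± 0.08 SE). In KCNT2, KCNH8 and KCNG3 alike, replicate 2 was the highest of the dTAG47 libraries and lay within the range of the DMSO libraries, whereas the other 3 lay below it. In KCNRG, a regulator of Shaker-type channels, the dTAG47 values (1.76, 2.30, 2.31 and 1.97 CPM) were below those of DMSO (2.51, 2.38, 2.46 and 2.48 CPM) without a call (log2 fold change -0.23 ± 0.12 SE).

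**Figure D4:**
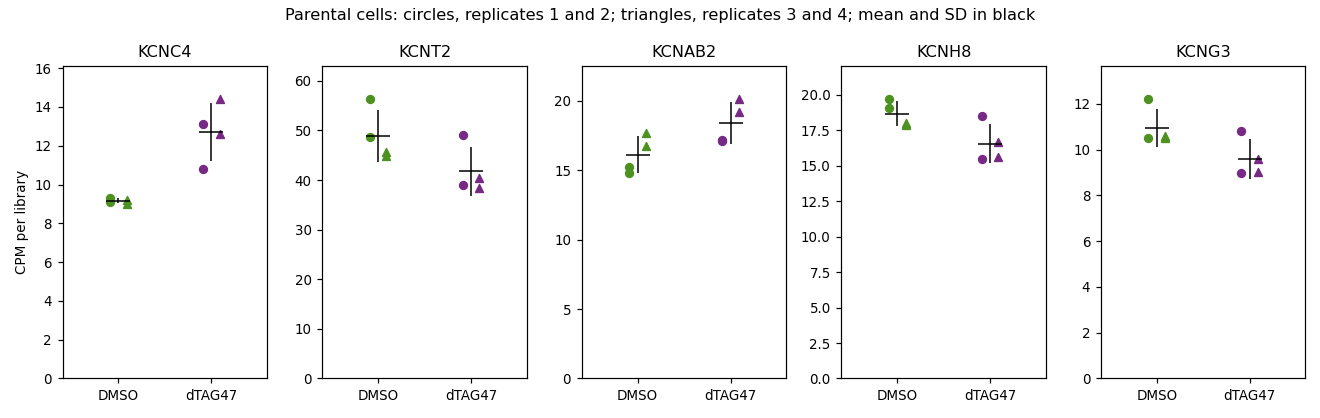
CPM in each library of parental cells for the 5 KCN genes with the smallest p-values, DMSO in green and dTAG47 in purple (n = 4 each), with circles for replicates 1 and 2, triangles for replicates 3 and 4, and the mean and SD in black. KCNC4 is the gene whose groups do not overlap, at 9.00 to 9.31 CPM in DMSO and 10.8 to 14.4 CPM with dTAG47.

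Among the 10 rises and 10 falls ranked largest with OmoMYC, the interval with dTAG47 in parental cells excluded 0 for KCNG3 (-0.34 to -0.04) and KCNH7 (-0.23 to -0.02), neither of which was called, and included 0 for the others. For KCND2 the 95% interval of the log2 fold change with dTAG47 was -0.16 to 0.08 (12.3 mean CPM in DMSO), and for KCNN3, at 0.731 mean CPM, it was wider, -0.47 to 0.24. KCNT1 had an interval of -0.12 to 0.40, KCNH6 of -0.18 to 0.21 and KCNG1 of -0.19 to 0.03. Among genes named whatever they showed, the intervals were -0.07 to 0.20 for KCNH2, -0.07 to 0.12 for KCNMA1, -0.08 to 0.19 for KCNK3, -0.22 to 0.27 for KCND3 and -0.92 to 0.09 for KCNJ3. The last of these is the widest, at 0.462 mean CPM. None of the 16 partner genes or 10 potassium transport genes tested in parental cells was called, and ATP1B2 stood at 1.94 ± 0.149 CPM in DMSO and 1.86 ± 0.246 CPM with dTAG47 (mean ± SD, n = 4).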

How the data were processed

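RNA was depleted of ribosomal RNA and sequenced from 14 libraries of CHP-134 cells: EGFP and OmoMYC (n = 3 each), DMSO and dTAG47 (n = 4 each), described as biological replicates. The deposited values are whole-number counts per gene, which the authors made by trimming with Cutadapt, aligning to hg19 with STAR and counting with featureCounts, without normalization. Versions, annotation and strand setting are not given in the sources used here. Trimming, multi-mapping and strand settings could move counts of paralogs and overlapping genes.

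Each table was fitted whole in R 4.3.3 with edgeR 4.0.16: filterByExpr at defaults, TMM factors, the robust quasi-likelihood test and Benjamini-Hochberg adjustment over all tested genes, with calls at an FDR below 0.05. CPM uses TMM-scaled totals. The biological coefficient of variation was 0.0838 and 0.0564. Intervals of log2 fold changes are 1.96 standard errors either side. With few libraries this multiplier makes them narrower than the quasi-likelihood test allows. With dTAG47, KCNK5 had an interval of 0.01 to 0.34 at an unadjusted p of 0.052 by that test. Coordinates, exon lengths and GC content come from GENCODE 44 lifted to GRCh37. Alternatives were DESeq2 1.42.0, RLE factors, limma-voom (limma 3.58.1), the filter dropped or replaced by 10 or more counts in each library, removal from each library of a trend on transcript GC content and length and on gene span, a replicate block, a factor for parental replicates 1 and 2 against 3 and 4, and each library left out. The trend was fitted with a constant per library, so removing it also re-centred each library. The fits were tested on 1 simulated data set per design. In that draw the false share among calls of edgeR was above the nominal level in the OmoMYC design and close to it in the parental design. A share from a single draw varies between draws, so it does not settle on which side of the nominal level the fits lie. Each simulated set changed 200 genes, far fewer than the 7311 called with OmoMYC, so the share does not carry over to those calls.

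The members and lists were chosen with earlier results of these data known. Genes named with values are, first, the 10 largest called rises and 10 largest called falls with OmoMYC. These had a mean of 1 CPM or more in either group and no overlap. Also named are the 5 with the smallest p in parental cells and the 5 highest per length in EGFP and in DMSO. So are KCNH2, KCNMA1, KCNN3, KCNJ3, KCNK3 and KCND3. Some genes these rules name are not reported here, though all counts include them. Other members are named to account for the rest, and were chosen after their values were seen where single values are given. Deviations of libraries with the same replicate number correlated at -0.0697 to 0.293 in the OmoMYC experiment and at 0.0093 to 0.159 in parental cells, so the numbers were not taken to pair the libraries.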

Additional observations from a re-analysis of the deposited data

Results flagged for a closer look

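In the parental experiment, 15 members were examined in both groups of 4 libraries, 30 groups in all, for a library whose gap to the nearest other was large for the whole range by Dixon's test at 95%. Chance alone marks about 1 group in 20, and 3 groups were marked here. KCNG3 stood at 12.2 CPM in DMSO replicate 1, above the other DMSO libraries at 10.5 to 10.6 CPM. KCNJ3 stood at 0.317 CPM in DMSO replicate 3, below the others at 0.497 to 0.531 CPM. KCNK3 stood at 16.8 CPM in DMSO replicate 3, above the others at 14.6 to 15.0 CPM. None of these genes was called with dTAG47 in any fit that left out 1 library.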

How the results depend on the processing

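With OmoMYC, 23 members were higher and 16 lower. The counts were 23 and 15 by DESeq2, 23 and 16 with RLE factors and by limma-voom, 24 and 16 without the filter, 20 and 15 with at least 10 counts in every library, and 25 and 16 with a replicate block, which added KCNC4 and KCNK12. They were 14 and 21 with the trend on GC content, length and span removed, where 12 of 64 members changed sign, KCNC1 (-0.16), KCNH3 (-0.07), KCND3 (-0.07), KCNH4 (-0.35), KCNC4 (-0.06) and KCNA3 (0.13) among them, as did SLC12A4 (-0.05) and SLC12A7 (-0.23). The called shares of members and of all tested genes were 48.1% and 46.3% by DESeq2, 60.9% and 52.9% with RLE factors, and 60.9% and 53.2% by limma-voom. They were 46.0% and 42.2% without the filter, and 62.5% and 53.6% with at least 10 counts. With the block they were 64.1% and 58.7%, and with the trend removed 54.7% and 60.9%. Leaving out 1 library gave 19 to 26 higher and 13 to 17 lower. Those fits called 49.2% to 61.2% of members and 41.0% to 58.9% of all tested genes. KCND3 ranged from -0.01 (without EGFP replicate 2) to 0.27. In parental cells 1 member was higher and none lower. With the replicate block or with the factor for replicates 1 and 2 against 3 and 4, 3 were higher (4.35%), beside 4.62% and 5.49% of all tested genes called. Leaving out 1 library gave 0 to 1 higher and 0 to 1 lower, where 0.0412% to 0.579% of all tested genes were called. KCND3 ranged from -0.05 to 0.13 (-0.01 without dTAG47 replicate 2, 0.00 without replicate 3). The cause of these shifts was not tested. The replicate numbers were not taken to pair the libraries, so the block stands as an alternative only. In parental cells the main fit leaves out the structure shared by replicates 1 and 2 against 3 and 4. Leaving out 1 library ended calls of members both below 1 CPM and above it, such as KCNC1 at 63.1 mean CPM in EGFP.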
